A study of Mus musculus with 17 samples.

Results

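Markers of liver macrophages, 10 genes in all, were followed through RNA-seq of isolated mouse hepatocytes. They were 5 genes that mark the resident macrophages of the liver, the Kupffer cells (Clec4f, Timd4, Cd5l, Vsig4 and Marco), and 5 that are shared more widely among macrophages (Adgre1, Csf1r, C1qa, Ctss and Cd68). The members were chosen by name, 10 of the 55536 genes in the expected count tables, and all 10 passed the filter on low counts. Hepatocytes were prepared by collagenase perfusion from C57BL/6J mice, 3 months old and of the ApcDHep genotype, in which hepatocytes lose Apc, a brake on β-catenin signalling. Every mouse, controls included, was given SaCas9 constructs by the viral vector AAV8 (1 month) and tamoxifen (2 mg, 7 days). The edit was at a site bound by β-catenin that lies ahead of the Dlk1/Dio3 locus in the group called WRE-edited, and at the Rosa26 locus in the controls, called Rosa26-edited. There were 6 WRE-edited libraries and 5 Rosa26-edited ones for RNA-seq, and 3 of each for miRNA-seq.

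Kupffer cells live in the liver sinusoids, where they clear particles, bacteria and aged red cells from portal blood. They carry a set of surface receptors that other macrophages mostly lack, and their survival depends on the receptor Csf1r and its ligands. They are not hepatocytes, so their RNA in a hepatocyte preparation comes with cells or RNA that were carried through the perfusion, or with a low level in other cells, and the labels name no step that would remove or count them. In these bulk libraries, fewer macrophages and less RNA per macrophage cannot be told apart.

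The libraries fell into 3 batches, called runs here and read from a number in the library names. Run r770 held WRE-edited 1 to 3 and Rosa26-edited 1 to 3, run r595 held WRE-edited 6 with Rosa26-edited 4 and 5, and run r711 held WRE-edited 4 and 5 with no control. With run as a term, the fitted group difference therefore rests on r770 and r595. WRE-edited 4 and 5 then add to the estimate of spread but not to that difference. Depth was 20727036 to 38935135 expected counts, and mitochondrial ribosomal RNA took 2.29% to 3.00% of counts in r595 against 19.0% to 29.1% in the other runs. Rian, a noncoding RNA of the Dlk1/Dio3 locus, was at 48.7 to 113 CPM (counts relative to the library size, scaled with TMM factors) in WRE-edited libraries and at 171 to 405 CPM in Rosa26-edited libraries, without overlap. Alb, the albumin gene that defines hepatocytes, was at 31449 to 40404 CPM. The library names of WRE-edited 4 and 6 share an animal number, so these may come from 1 mouse. Whether the rest are separate animals is not said in the labels, and the p-values then cover the spread from library to library, which may be technical. In the macrophage markers Rosa26-edited 2 in r770 and Rosa26-edited 5 in r595 stood apart, and values without them are given beside the results they touch.

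The stretch of 250 bases before the annotated start is shown for markers whose RNA moved together across the libraries (Clec4f, Cd5l and Cd68) and for Marco, which did not move with them and was added to this set after its values were seen. Sequences are from RefSeq on GRCm38.p6, read 5′ to 3′ on the gene's own strand, and capitals mark AGGAAG or its reverse complement CTTCCT, a sequence that the macrophage factor PU.1 (Spi1) is known to bind.
Clec4f (chr6:83656117-83656366, minus strand): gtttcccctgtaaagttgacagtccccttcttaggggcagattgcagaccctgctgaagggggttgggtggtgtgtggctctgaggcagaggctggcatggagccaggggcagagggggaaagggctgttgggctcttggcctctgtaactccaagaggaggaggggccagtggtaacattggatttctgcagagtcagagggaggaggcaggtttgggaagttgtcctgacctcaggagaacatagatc
Cd5l (chr3:87357631-87357880, plus strand): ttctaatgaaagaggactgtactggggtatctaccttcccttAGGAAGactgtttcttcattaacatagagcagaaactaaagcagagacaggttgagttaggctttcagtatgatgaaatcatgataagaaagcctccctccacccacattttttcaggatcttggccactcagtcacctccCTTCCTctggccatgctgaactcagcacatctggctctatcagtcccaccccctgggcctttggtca
Cd68 (chr11:69666171-69666420, minus strand): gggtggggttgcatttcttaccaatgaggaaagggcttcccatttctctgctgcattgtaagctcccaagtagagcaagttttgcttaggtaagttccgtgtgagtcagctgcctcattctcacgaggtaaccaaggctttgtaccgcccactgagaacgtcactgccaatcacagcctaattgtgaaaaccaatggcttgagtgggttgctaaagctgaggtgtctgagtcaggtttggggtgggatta
Marco (chr1:120505025-120505274, minus strand): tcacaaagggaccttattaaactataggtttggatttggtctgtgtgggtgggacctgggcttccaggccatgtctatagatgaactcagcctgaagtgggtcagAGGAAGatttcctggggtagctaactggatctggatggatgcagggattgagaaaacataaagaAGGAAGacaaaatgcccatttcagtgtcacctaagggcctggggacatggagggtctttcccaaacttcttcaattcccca
Matches lay 208 and 67 bases before the start in Cd5l and 145 and 81 bases before it in Marco, and these letters were absent from the windows of Clec4f and Cd68. Of the 7 markers with a promoter entry, 2 held a match on either strand, against 29.6% of 32536 promoters of the same length. The matches describe the letters alone, and they did not separate Marco from Cd5l.

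All 10 markers were detected in every library, at levels far below those of hepatocyte genes. On the TPM scale, which corrects for transcript length, the order of the median levels over the 11 libraries was Cd5l (59.6 TPM), Clec4f (37.4), C1qa (30.8), Ctss (24.1), Vsig4 (11.5), Csf1r (10.4), Adgre1 (7.48), Cd68 (6.35), Marco (6.08) and Timd4 (2.50). Cd5l lay above Clec4f, Ctss above Vsig4, and Marco above Timd4 in 11 of 11 libraries. The other neighbours in that order changed places: Clec4f was above C1qa in 8 of 11 libraries, C1qa above Ctss and Csf1r above Adgre1 in 9, Cd68 above Marco in 8, and Vsig4 above Csf1r and Adgre1 above Cd68 in 7. The most abundant marker, Cd5l, had a mean TPM that was 0.470% of that of Alb, and Timd4 had 0.0208%. The 10 markers together took 0.0373% to 0.126% of the scaled counts of a library.

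Markers of resident Kupffer cells were compared first between the edited groups. None of the 5 passed the test, and the highest value of each belonged to a control library. Clec4f encodes a C-type lectin found on mouse Kupffer cells, and it lies at chr6:83644542-83656116. Its level was 71.1, 106 and 131 CPM (lowest, median and highest) in the 6 WRE-edited libraries and 134, 220, 88.2, 78.1 and 120 CPM in Rosa26-edited 1 to 5. The groups overlapped: 3 controls lay inside the WRE-edited range, Rosa26-edited 1 was just above it and Rosa26-edited 2 far above it. The log2 fold change of WRE-edited over Rosa26-edited, fitted with the run as a term, was -0.44 ± 0.23 (SE; adjusted p = 0.532 in edgeR's quasi-likelihood test).

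Timd4, a receptor for phosphatidylserine on dying cells, marks long-lived resident macrophages and lies at chr11:46810786-46844333. It was at 5.85, 7.01 and 8.36 CPM in the WRE-edited libraries (lowest, median, highest) and at 8.30, 13.3, 5.92, 6.73 and 24.3 CPM in Rosa26-edited 1 to 5. The WRE-edited range was narrow, with 3 controls inside it, and Rosa26-edited 2 and 5 lay above it. This gave a log2 fold change of -0.61 ± 0.35 (adjusted p = 0.557).

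Cd5l (chr3:87357881-87371074) encodes a secreted protein of tissue macrophages, also called AIM, that binds lipids and cell debris. It was at 142, 160 and 193 CPM in the WRE-edited libraries and at 190, 335, 124, 154 and 378 CPM in the controls. The same 2 controls were above every WRE-edited library, and Rosa26-edited 3 was below every one. In the fit this was a log2 fold change of -0.46 ± 0.31 (adjusted p = 0.601).

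Vsig4 (chrX:96247201-96293438) encodes the complement receptor CRIg, with which Kupffer cells take up complement-coated bacteria. Its level was 12.5, 20.6 and 33.5 CPM in the WRE-edited libraries and 24.9, 43.2, 9.88, 15.6 and 31.0 CPM in the controls. The highest and the lowest of the 11 values were both controls of r770, and Rosa26-edited 5 lay inside the WRE-edited range. The log2 fold change was -0.55 ± 0.38 (adjusted p = 0.621).

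Marco (chr1:120474538-120505024), a scavenger receptor that binds bacteria and particles and is known to be induced in macrophages by bacterial products, had a pattern of its own. It was at 11.2, 16.8 and 32.9 CPM in the WRE-edited libraries and at 13.8, 16.8, 14.9, 13.1 and 370 CPM in Rosa26-edited 1 to 5. Rosa26-edited 1 to 4 lay in the lower part of the WRE-edited range, and Rosa26-edited 5 was 28.2 times its control of the same run and 11.2 times the highest of the other libraries. Its log2 fold change was -0.25 ± 1.00 (adjusted p = 0.939). It was 0.66 ± 0.22 without Rosa26-edited 5 (adjusted p = 0.628) and 0.55 without WRE-edited 6, so its direction depended on single libraries of r595. With no run term it was -2.15 ± 0.98 (adjusted p = 0.987).

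**Figure D1:**
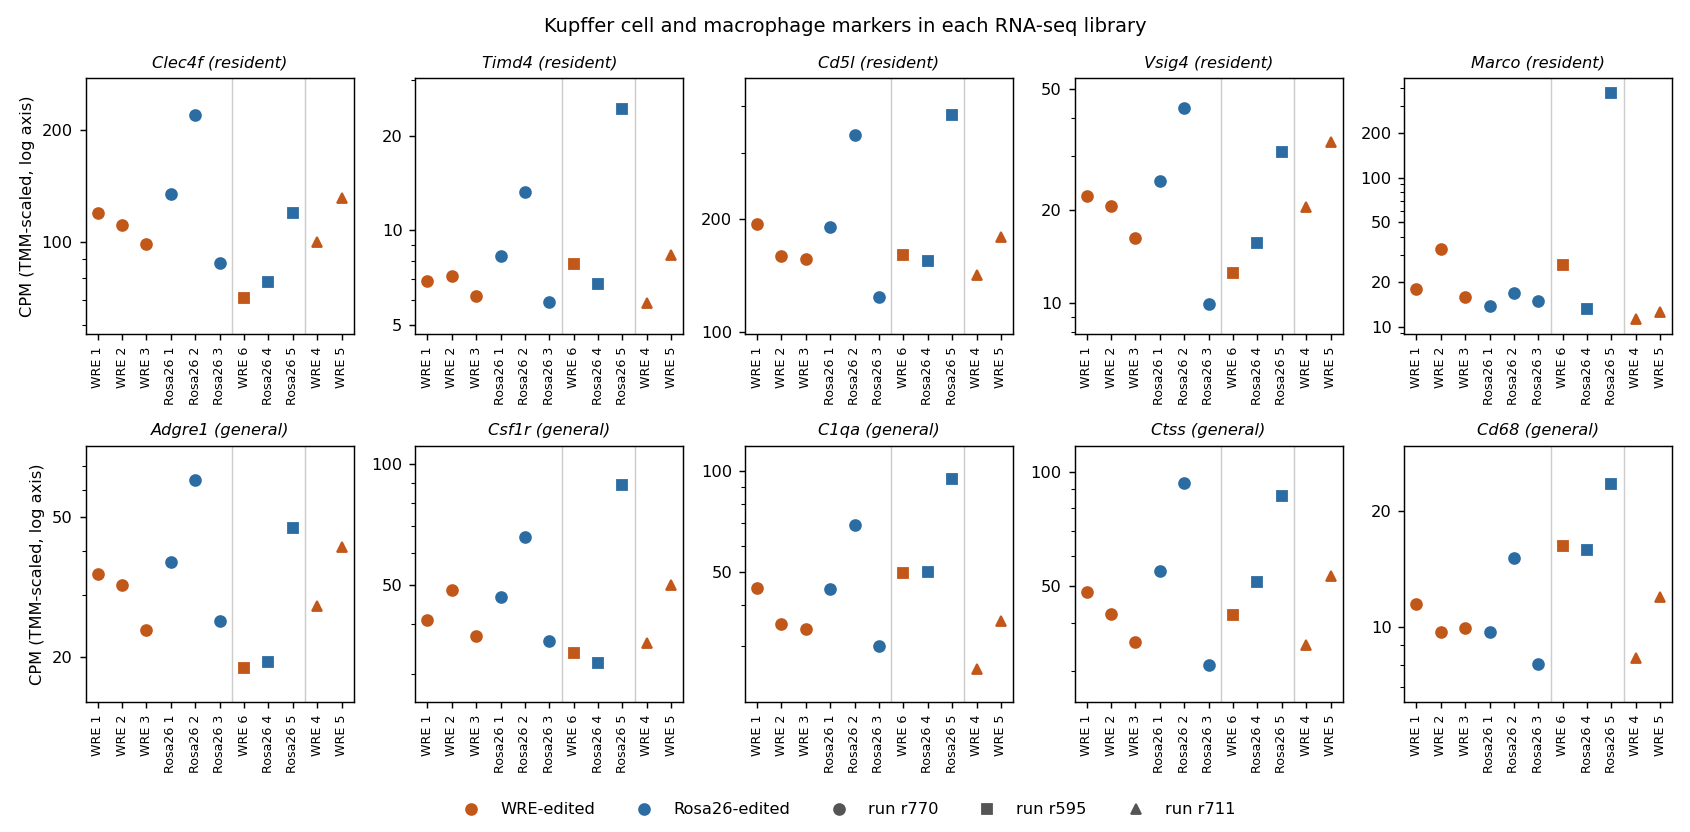
Level of each marker in the 11 RNA-seq libraries, in CPM on a log axis that differs between panels, with runs separated by grey lines (r770, r595, r711 from left to right). Rosa26-edited 2 or 5 is the highest library in every panel, and Marco reaches 370 CPM in Rosa26-edited 5 against at most 32.9 CPM elsewhere.

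General macrophage genes showed the same picture, with no call among 5. Adgre1 (chr17:57358581-57483529) encodes F4/80, the classical surface antigen of mouse macrophages. It was at 18.6, 29.9 and 41.2 CPM in the WRE-edited libraries (lowest, median, highest) and at 37.3, 63.8, 25.3, 19.3 and 46.7 CPM in Rosa26-edited 1 to 5. Again 3 controls lay inside the WRE-edited range, and Rosa26-edited 2 and 5 lay above it. The fitted log2 fold change was -0.59 ± 0.31 (adjusted p = 0.532). The pseudogenes Gm18069 and Gm20243 overlap this gene, and whether counting used strand is not known here.

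Csf1r (chr18:61105572-61131139) encodes the receptor for Csf1 and Il34 on which macrophages depend. It was at 33.8, 39.1 and 50.1 CPM in the WRE-edited libraries and at 46.6, 65.9, 36.2, 31.9 and 88.8 CPM in the controls. Rosa26-edited 2 and 5 were again above all WRE-edited libraries, and Rosa26-edited 4, from the run of the highest library, was the lowest of the 11. The fitted log2 fold change was -0.41 ± 0.29 (adjusted p = 0.616). The RNAs Mir6983 and Gm52352 overlap it.

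C1qa (chr4:136895916-136898844) encodes a chain of C1q, the first component of complement, which in the liver is made chiefly by macrophages. Its level was 25.6, 35.3 and 49.6 CPM in the WRE-edited libraries and 44.5, 68.9, 30.04, 50.1 and 94.9 CPM in the controls. Inside the WRE-edited range were 2 controls, and 3 were above it, of which Rosa26-edited 4 was only just so. The log2 fold change was -0.40 ± 0.25 (adjusted p = 0.586).

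Ctss (chr3:95526786-95556405) encodes cathepsin S, a protease of antigen-presenting cells that trims the invariant chain of class II molecules. It was at 35.1, 42.1 and 53.2 CPM in the WRE-edited libraries and at 54.8, 93.2, 31.1, 51.3 and 86.1 CPM in the controls. Above the WRE-edited range were 3 controls, with 1 inside it and 1 below it. This gene had the smallest p of the 10, with a log2 fold change of -0.57 ± 0.28 (unadjusted p = 0.0698, adjusted p = 0.523 in edgeR). The pseudogene Hmgb1-ps5 overlaps it.

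Cd68 (chr11:69664213-69666170) encodes a glycoprotein of macrophage lysosomes and was the marker with the smallest difference. It was at 8.32, 10.7 and 16.2 CPM in the WRE-edited libraries and at 9.70, 15.1, 8.03, 15.8 and 23.4 CPM in the controls. Rosa26-edited 5 was above the WRE-edited range, Rosa26-edited 3 just below it and the other 3 controls inside it. Its log2 fold change was -0.14 ± 0.20 (adjusted p = 0.813), which an interval of 2 standard errors places between -0.54 and 0.26.

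Across the 10 markers the differences were of 1 sign, from -0.61 (Timd4) to -0.14 (Cd68), and none passed the test. All 10 had a negative log2 fold change, in a fit where 48.3% of all genes had one, and their median was -0.45 against 0.01 for all 14393 genes tested. With edgeR 0 of 10 were called at an adjusted p of 0.05 (background 0.00695% of genes lower and 0% higher), and 0 of 10 had an unadjusted p under 0.05 (background 5.14% lower and 4.95% higher). DESeq2 also called 0 of 10 (background 0.217% lower and 0.144% higher), with 2 of 10 at an unadjusted p under 0.05 (background 3.5% lower and 3.02% higher). Without the filter on low counts edgeR called 2 of 10 lower, Adgre1 (adjusted p = 0.0248) and Ctss (adjusted p = 0.0304), against a background of 1.15% lower and 0.476% higher. Most of the markers moved together from library to library, so their signs were not independent of each other. Intervals of 2 standard errors reached from -0.91 to 0.03 for Clec4f, from -1.20 to 0.03 for Adgre1 and from -2.24 to 1.75 for Marco, so differences of such sizes were not resolved.

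Resident and general markers had similar log2 fold changes. The median log2 fold change was -0.46 for the 5 resident markers and -0.41 for the 5 general ones, a difference of -0.05 that lay between -0.12 and 0.09 over the 21 other settings planned for it. Within libraries, the mean log2 CPM of the resident markers minus that of the general ones was 0.09 to 0.39 in the WRE-edited libraries. In the controls it was 0.17, 0.16, 0.10, -0.12 and 0.80, in the order Rosa26-edited 1 to 5. The value of 0.80 came down to 0.34 with Marco left out, where the other libraries lay between 0.15 and 0.61.

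Both runs that hold both groups gave negative median differences. Within r770 the median difference in mean log2 CPM was -0.25, with 9 of 10 markers negative and Marco at 0.47, and within r595 it was -0.66, with 10 of 10 negative and Marco at -1.44. Leaving out the highest control of a run, a choice made after the values were seen, raises the difference by construction. Without Rosa26-edited 2 the median within r770 was 0.04 with 2 of 10 negative. Without Rosa26-edited 5 the median within r595, then 1 library against 1, was 0.01 with 5 of 10 negative. The opposite choice, leaving out the low control Rosa26-edited 3, took the fitted median over all runs to -0.63. In r770, 0 of 10 markers had all 3 WRE-edited libraries below all 3 controls (background 4.34% of genes). In r595, 5 of 10 had WRE-edited 6 below both controls (background 34.4%): Clec4f, Vsig4, Adgre1, C1qa and Ctss. Over all runs, 0 of 10 had every WRE-edited library below every control (background 0.222%). The difference between the 2 runs was tested as an interaction, and it passed for 0 of 10 markers in edgeR (background 0% in each direction) and in DESeq2 (background 0.0037% lower and 0.00739% higher). At an unadjusted p under 0.05 edgeR had 0 of 10 (background 4.38% lower and 2.15% higher). Marco had the widest estimate, -3.44 ± 1.93 on the log2 scale (adjusted p = 0.800; 2.51e-14 in edgeR without the filter on low counts, where it was the 1 marker called, background 0.728% lower and 0.2% higher), and the other 9 lay between -0.61 and -0.05.

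**Figure D2:**
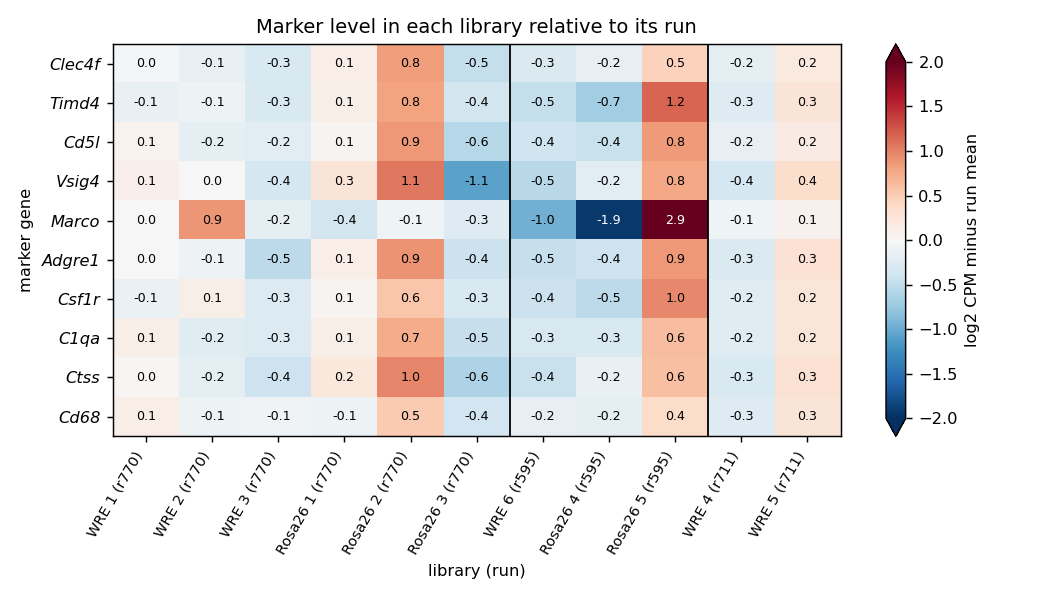
Log2 CPM of each marker (rows) in each library (columns) minus the mean of that library's run, in log2 units. Rosa26-edited 2 and 5 are above their run's mean for all markers but Marco in Rosa26-edited 2, and the rows other than Marco resemble each other.

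The markers varied widely across libraries, and mostly in step. Rosa26-edited 2 was the highest library of r770 for 9 of 10 markers, all but Marco, and Rosa26-edited 5 was the highest of r595 for 10 of 10. Over all 11 libraries, Rosa26-edited 5 was the highest for 6 markers (Timd4, Cd5l, Marco, Csf1r, C1qa and Cd68; 12.5% of all genes were highest there) and Rosa26-edited 2 for the other 4 (Clec4f, Vsig4, Adgre1 and Ctss). The low end was shared between the groups, with 5 markers lowest in a WRE-edited library and 5 in a control. Rosa26-edited 3 was the lowest of r770 for 8 markers, and WRE-edited 5 was above WRE-edited 4 for 10 of 10. Apart from the 12.5%, the shares of all genes with these ranks were not computed. With so few libraries in r595 and r711, such ranks would be common among all genes too. In Rosa26-edited 2 the 9 markers other than Marco were 1.59 to 2.48 times the mean of the other controls of r770, with Marco at 1.17 times. In Rosa26-edited 5 the same 9 markers were 1.48 to 3.61 times Rosa26-edited 4.

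With both libraries left out, a choice made after the values were seen and one that raises the difference by construction, the median log2 fold change of the 10 markers was 0.02, and 3 of 10 were negative (Clec4f, Adgre1 and Ctss; background 48.5%). Without Rosa26-edited 5 alone the median was -0.26 with 9 negative, and without Rosa26-edited 2 alone it was -0.23 with 9 negative. The opposite choice, leaving out the low control Rosa26-edited 3, gave -0.63 with 7 of 10 markers at an unadjusted p under 0.05 in edgeR (background 6.81% lower and 6.99% higher) and 0 called (background 0.0137% lower, 2 of 14605 genes, and 0% higher). The size of the difference thus changed with the controls that entered it.

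**Figure D3:**
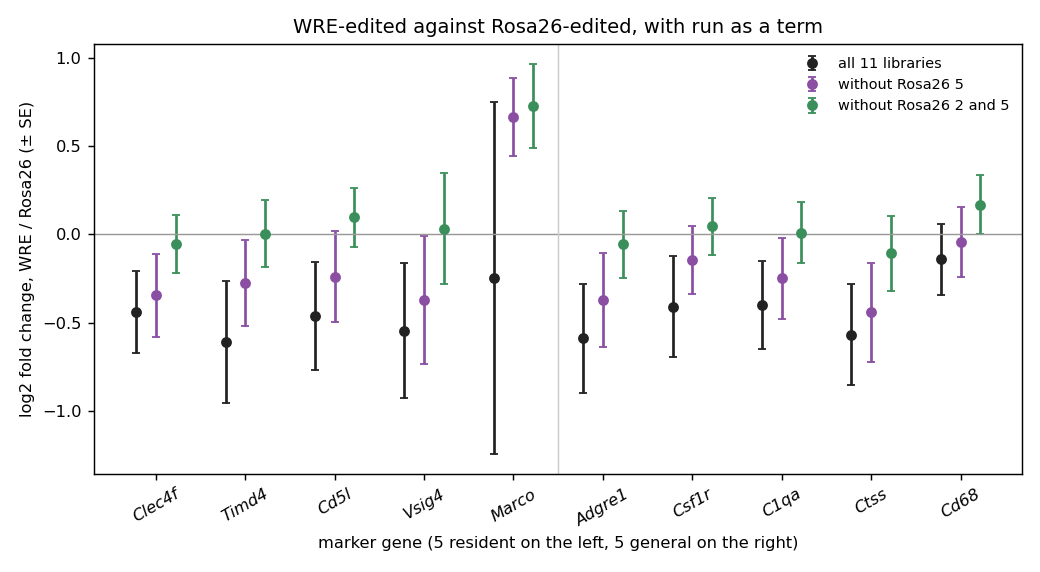
Fitted log2 fold change of WRE-edited over Rosa26-edited for each marker, with its standard error as bars, from all 11 libraries (black), without Rosa26-edited 5 (purple) and without Rosa26-edited 2 and 5 (green). The median over the markers goes from -0.45 to -0.26 to 0.02, and Marco changes sign without Rosa26-edited 5.

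Residual variation, the standard deviation of log2 CPM left after run and group, was 0.34 to 0.69 for the 9 markers other than Marco and 1.41 for Marco. Genes of similar level, within 0.5 log2 units of each marker, had median standard deviations of 0.20 to 0.25, and all 10 markers lay above that of their own neighbours. Cd68 varied least and Vsig4 most among the 9, and 0.716% of all genes varied more than Marco. As a description, log2 CPM was centred within runs over 11 libraries that differ in run and depth. The 9 markers then correlated with each other at r = 0.82 to 0.99. Clec4f and Ctss formed the closest pair (r = 0.99). Marco correlated with the others at 0.41 (Clec4f) to 0.83 (Csf1r).

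The genes outside the set whose pattern over the 11 libraries was most like the markers' mean were Ptgs1 (r = 0.98), Cybb (0.98), Trps1 (0.98), Hif1a (0.97), Rab8b (0.97), Nckap1l (0.97), Ppp1r9b (0.97), Ctsc (0.96), Ifi30 (0.96) and Cfp (0.96). Ptgs1 encodes cyclooxygenase 1, Cybb a subunit of the phagocyte NADPH oxidase, Ctsc a lysosomal protease and Cfp the complement factor properdin. Without Rosa26-edited 2 and 5 the likeness of Ptgs1 was r = 0.95 over the other 9 libraries and that of Ctsc was 0.74. None of the 10 was called, with log2 fold changes from -0.63 ± 0.38 (Trps1) to -0.11 ± 0.18 (Ppp1r9b).

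Other genes of the macrophage and its growth factor axis were read from lists. Of them 0 were called by edgeR (background 0.00695% of genes lower and 0% higher) or DESeq2 (background 0.217% lower and 0.144% higher). At an unadjusted p under 0.05 in edgeR (background 5.14% lower and 4.95% higher) were 1 resident gene (Pilra), 1 gene of the Csf1r axis list (Tfec) and 0 general genes. Over all genes, 48.3% had a negative log2 fold change. Among 10 other resident Kupffer cell genes, 10 had a negative log2 fold change, with a median of -0.45. The lectin receptor Clec1b had -0.47 ± 0.31, the folate receptor Folr2 -0.41 ± 0.28 and ficolin A (Fcna) -0.06 ± 0.25. Among 14 further general macrophage genes 13 were negative, with a median of -0.36, including the other C1q chains C1qb (-0.27 ± 0.26) and C1qc (-0.42 ± 0.26) and the Fc receptor chain Fcer1g (-0.25 ± 0.25). Of 12 genes of the Csf1r axis and the transcription factors of macrophages, 11 were tested and 7 were negative, with a median of -0.16. The ligand Csf1 had 0.11 ± 0.14 and the factor Spi1 (PU.1) -0.16 ± 0.25, while the ligand Il34 was below the filter. Without Rosa26-edited 2 and 5 the medians of these 3 lists were 0.00, 0.08 and 0.02.

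Markers of other cells moved with the high controls in part, and their part in the result was not tested. In Rosa26-edited 2 the summed level of 8 neutrophil genes was 23.4 CPM against 4.96 to 12.2 CPM in the other controls and 5.66 to 7.71 CPM in the WRE-edited libraries. In this list S100a8 and S100a9, abundant calcium-binding proteins of neutrophils, were at 6.28 and 10.95 CPM there. The summed level of 8 platelet and red cell genes was 34.2 CPM in Rosa26-edited 2 against 9.41 to 14.2 CPM in all other libraries. The platelet genes of that list did not all follow. Pf4 was highest there (0.976 CPM), but Itga2b was the lowest of the controls there (0.946 CPM). Ppbp was at 0.27 CPM there, below the control median of 0.446 CPM. Hepatocyte genes did not follow, at 0.942 times the other controls of r770. Endothelial genes, from the cells that line the sinusoids beside Kupffer cells, were at 1.11 times, and stellate cell genes at 1.38 times. The summed levels of 10 other resident Kupffer cell genes and 14 further general macrophage genes were at 1.24 and 1.37 times. At 452 and 581 CPM these 2 sums lay within the range of the other libraries (highest 469 and 658 CPM). The sum of 10 endothelial genes also lay within it (153 to 245 CPM). So Rosa26-edited 2 was higher in the summed neutrophil genes, in the pooled platelet and red cell sum and in 9 of the 10 markers. It was also higher in single genes of the wider macrophage lists, whose sums differed from the endothelial sum by degree. Of the endothelial genes, Clec4g was above every WRE-edited library there (34.7 against at most 30.5 CPM), and Stab2 and Stab1 were not.

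In Rosa26-edited 5, against Rosa26-edited 4, the summed endothelial genes were 1.41 times, the neutrophil genes 1.55 times, the platelet and red cell genes 1.27 times and the stellate cell genes 0.967 times as high. The other resident Kupffer cell genes and the further general macrophage genes were each 1.62 times as high in Rosa26-edited 5, and hepatocyte genes 1.17 times. Genes of monocyte-derived macrophages were 1.84 times as high there and 1.79 times in Rosa26-edited 2. That list of 14 had 7 negative log2 fold changes, a median of 0.05 (0.42 without Rosa26-edited 2 and 5) and 0 calls, with 1 gene, Gpnmb (1.06 ± 0.46), at an unadjusted p under 0.05 in edgeR. It held Ccr2, the receptor that brings monocytes into tissue, at 0.16 ± 0.42, Ly6c2 at 0.14 ± 0.28 and Itgam at -0.32 ± 0.46. Bile duct markers were 3.12 times as high in Rosa26-edited 5 and 2.63 times in Rosa26-edited 2, mostly through Spp1 (18.5 and 22.1 CPM), which is also in the monocyte-derived list. Of the 6 bile duct genes only Sox9 and Spp1 passed the filter, and of 10 lymphocyte genes only Nkg7, Gzma and Ighm did. Among the other lists, stellate cell genes had a median of -0.49 with 10 of 10 negative, platelet and red cell genes -0.79 with 7 of 8, neutrophil genes -0.34 with 5 of 5 tested, lymphocyte genes -0.43 with 3 of 3 tested, dendritic cell genes -0.22 with 4 of 5 tested, endothelial genes -0.20 with 8 of 10 and hepatocyte genes -0.03 with 4 of 8. Without Rosa26-edited 2 and 5 the neutrophil median changed sign to 0.42, and the others were -0.21 (stellate), -0.44 (platelet and red cell), -0.42 (lymphocyte), -0.01 (dendritic), -0.04 (endothelial) and -0.04 (hepatocyte). Over all genes, 48.3% were negative in the fit with all libraries and 48.5% without Rosa26-edited 2 and 5. With edgeR 0 genes of these lists were called (background 0.00695% lower and 0% higher). DESeq2 called 1, the haemoglobin gene Hba-a1 (-2.59, adjusted p = 0.0259, background 0.217% lower and 0.144% higher). At an unadjusted p under 0.05 in edgeR, where 5.14% of all genes were lower and 4.95% higher, Hba-a1, Hba-a2, Hbb-bs and the stellate gene Des had negative values, while Alas2 of red cells (0.45), Sox9 of bile ducts (0.92) and Hnf4a of hepatocytes (0.32) had positive ones.

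**Figure D4:**
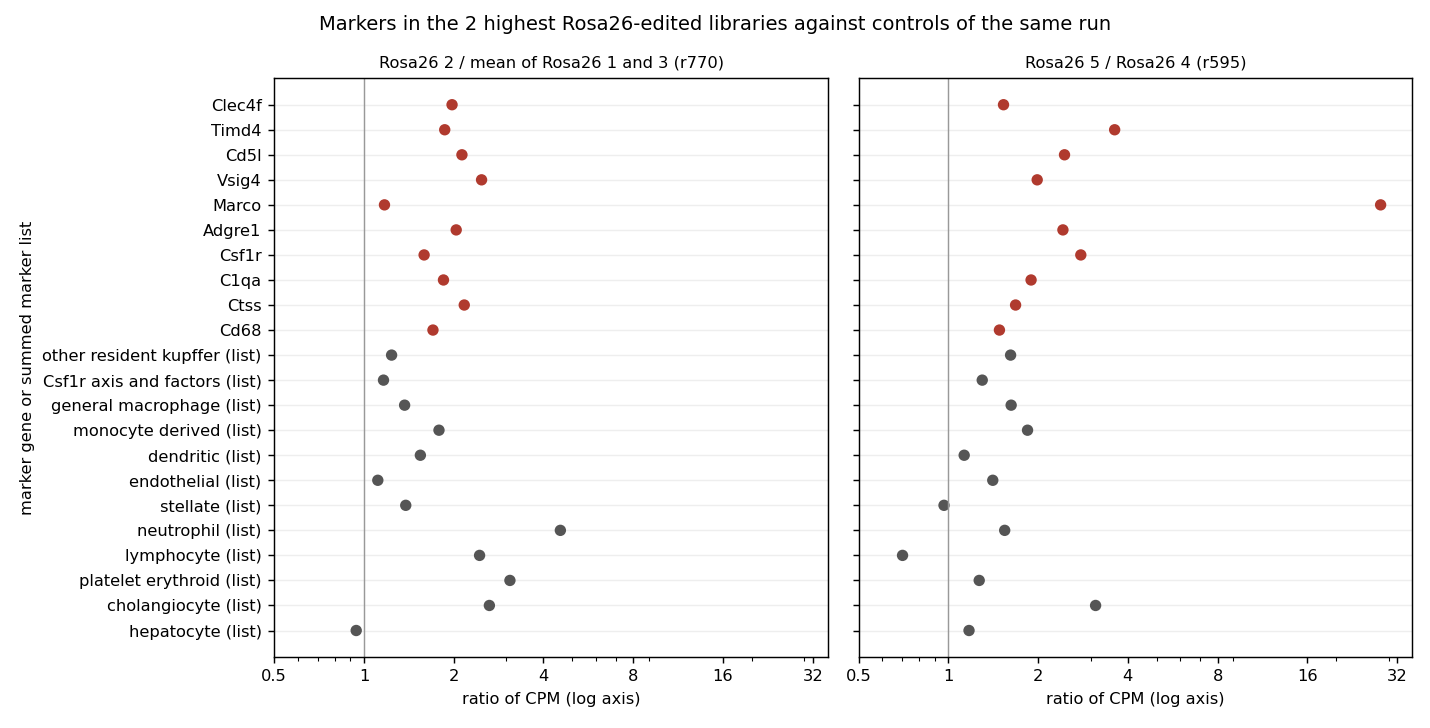
Ratio of CPM in Rosa26-edited 2 to the mean of Rosa26-edited 1 and 3 (left) and in Rosa26-edited 5 to Rosa26-edited 4 (right), on a log axis, for each of the 10 markers (red) and for the summed level of each marker list (grey). Neutrophil genes reach 4.56 times on the left, and Marco reaches 28.2 times on the right.

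The level of Marco in Rosa26-edited 5 was set beside other genes that were high there. Among 14393 genes tested, Marco was the only one at 10 or more times the highest other library there (background 0.00695%), and the following genes, named after their values were seen, were Cxcl13 (4.36 times), Orm2 (4.04 times), Saa1 (3.97 times), Cxcl14, Chrm3, Gm26522, Siglece, Hr, Emp1, Acod1 and, in place 12, Lcn2 (2.77 times). Saa1 and Orm2 encode proteins that hepatocytes secrete in inflammation, and Lcn2 encodes lipocalin 2, a protein that takes iron from bacteria. Saa1 was at 425 CPM in Rosa26-edited 5, at 107 CPM in WRE-edited 2 and at 31.0 to 62.5 CPM in the other 9 libraries. Lcn2 was at 430 CPM in Rosa26-edited 5, at 155 CPM in WRE-edited 2 and at 126 CPM in WRE-edited 6. These were the 3 highest libraries for Marco too, at 370, 32.9 and 25.7 CPM. Orm2 and Saa1 did not share that order. Orm2 was at 1537 CPM in Rosa26-edited 5 and 380 in WRE-edited 2, then at 355 in Rosa26-edited 4 and 317 in Rosa26-edited 1, which were low in Marco, and Saa1 was higher in Rosa26-edited 4 (62.5 CPM) than in WRE-edited 6 (57.97 CPM). The markers that moved together did not share that order, since Rosa26-edited 2, high in 9 of them, had 66.4 CPM of Lcn2 and 40.7 CPM of Saa1. The part of these genes in the Marco result was not tested.

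**Figure D5:**
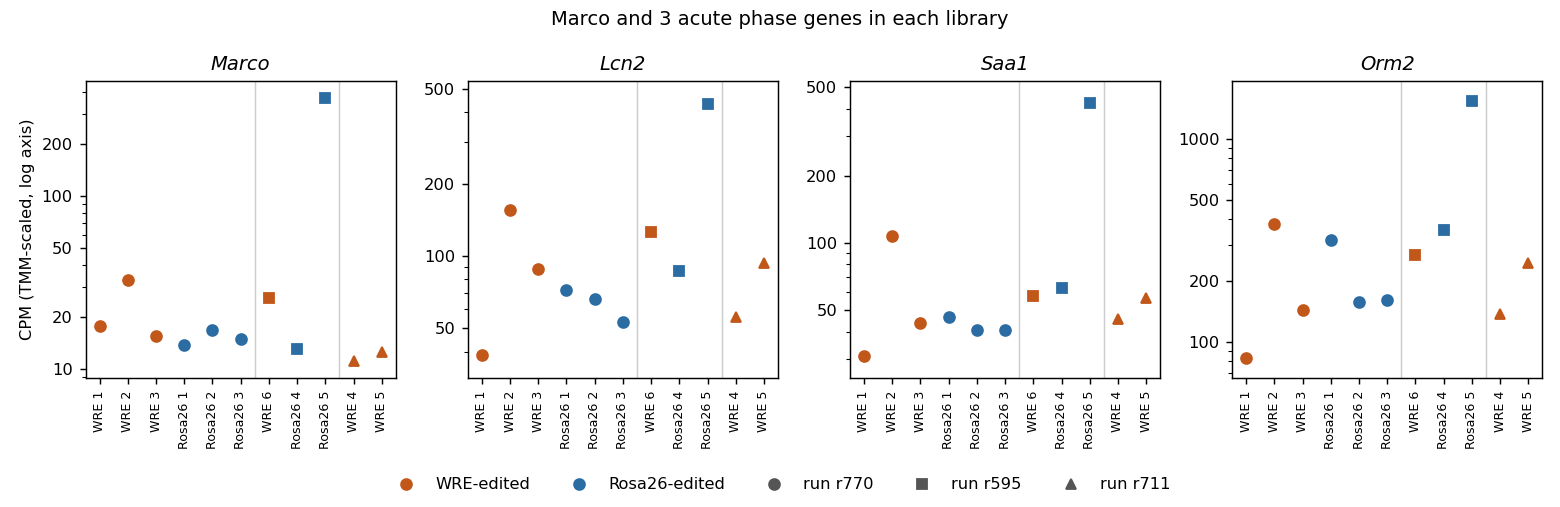
Marco, Lcn2, Saa1 and Orm2 in the 11 RNA-seq libraries, in CPM on log axes that differ between panels, with runs separated by grey lines. Rosa26-edited 5 is the highest library in all 4 panels and WRE-edited 2 the next highest.

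MicroRNAs of blood cells gave a second readout that the choice of markers did not use, in 6 miRNA-seq libraries of 1393509 to 2011383 counts. miR-223 and miR-142 are made chiefly in blood-derived cells, and miR-146a and miR-155 are induced in macrophages by inflammatory signals. Their mature sequences from RefSeq (GRCm38.p6) are shown with the seed, bases 2 to 8, in capitals, and no 2 of the 4 share a seed.
miR-223-3p (chrX:96242884-96242905, plus strand): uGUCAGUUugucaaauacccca
miR-142a-3p (chr11:87756903-87756925, plus strand): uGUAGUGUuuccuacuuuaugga
miR-146a-5p (chr11:43374435-43374456, minus strand): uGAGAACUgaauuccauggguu
miR-155-5p (chr16:84714143-84714165, plus strand): uUAAUGCUaauugugauaggggu
The miR-223-3p sequence lies 4295 bases from the Vsig4 gene on the X chromosome. None of the blood cell miRNAs differed between the groups beyond the spread of the libraries. miR-223-3p was at 1463, 1809 and 1405 CPM in the WRE-edited libraries and at 1240, 1278 and 1748 CPM in the controls, a log2 fold change of 0.13 ± 0.23. miR-142a-3p was at 702, 746 and 666 CPM against 999, 568.3 and 417 CPM (0.09 ± 0.31), so the controls lay on both sides of the WRE-edited libraries. miR-146a-5p was at 1050, 1470 and 1261 CPM against 1114, 979 and 1917 CPM (-0.08 ± 0.29). miR-155-5p, the least abundant of the 4, was at 19.0, 27.0 and 21.0 CPM against 32.9, 11.9 and 25.5 CPM (-0.08 ± 0.39).

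The groups overlapped for each of these 4. Of 8 listed myeloid miRNAs 7 passed the filter, and 0 of 7 were called by edgeR (adjusted p = 0.987 for each; background 0% of 355 miRNAs in each direction) or DESeq2 (background 1.05% lower and 0% higher), with 0 of 7 at an unadjusted p under 0.05 in edgeR (background 9.01% lower and 1.97% higher). The other arms miR-223-5p (0.16 ± 0.36), miR-142a-5p (-0.21 ± 0.34) and miR-511-5p (-0.03 ± 0.50) were at 5.71 to 66.2 CPM, and miR-511-3p, with 35 counts in all, was below the filter. miR-511 lies in an intron of Mrc1, a gene of the resident list (-0.58 ± 0.27, adjusted p = 0.495). The lymphocyte-rich miR-150-5p and miR-181a-5p had 0.03 ± 0.39 and -0.04 ± 0.37. The library named Rosa4, a name that Rosa26-edited 5 also carries in RNA-seq, was the highest of the 6 for miR-146a-5p (1917 CPM) and the lowest for miR-142a-3p (417 CPM), and no label says whether both came from 1 mouse.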

How the data were processed

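RNA-seq was analysed in 11 libraries and miRNA-seq in 6, grouped by the labels. For RNA-seq the authors deposited, per the file headers, 1 table a library with expected counts and TPM for each Ensembl gene and its effective length as another value. The submitters' processing notes name STAR 2.7.6a, RSEM 1.3.1 and the build GRCm38. The miRNA values were counts per mature miRNA as deposited by the authors, and no source used here gives their aligner, or the strand setting and annotation version of the RNA-seq. A deposited matrix of normalized values and the deposited design tables were not used.

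Expected counts were rounded, and gene identifiers were matched to symbols (55450 of 55536). Tests were run in R 4.3.3 with edgeR 4.0.16 (filterByExpr by group, minimum count 10 and minimum total 15, TMM, robust quasi-likelihood fit, two-sided), fitted on all 14393 genes with run and group as terms (residual degrees of freedom 7) and adjusted by Benjamini and Hochberg over all of them, with a threshold of 0.05. The miRNA fit held the group alone. The interaction of run and group was fitted on the 9 libraries of r770 and r595. DESeq2 1.42.0 was an alternative. Others were RLE size factors in place of TMM, effective lengths as offsets, mitochondrial genes left out, no run term and r770 alone. No filter on low counts, each library left out in turn and the replicate number as a block were also used. WRE-edited 4 and 6 were also summed, with no run term, and the median over the markers was then -0.44 with 0 called. The edgeR fit was tested on simulated data. With the RNA-seq design it called 11.9% of 1.5-fold, 56.2% of 2-fold and 89.1% of 4-fold changes. With the miRNA-seq design these shares were 4.35%, 27.3% and 100%, so small differences would mostly go uncalled. The simulated data held no differences between runs, and the changes were placed in genes taken at random. All 10 markers varied more than genes of similar level, so these shares may be too high for them. CPM used TMM factors, and pairwise patterns used log2 CPM with a prior count of 2. Markers and lists were chosen with earlier results of these data known. The rule for named genes took all 10 markers, the first 3 tested genes of each list, the 10 genes most like the markers' mean, all listed miRNAs and the promoters of Clec4f, Cd5l, C1qa and Cd68 (at most 4, bases before the start only). C1qa had no promoter entry. Of these, 1 list gene is not reported here. Other genes named were chosen after their values were seen. Coordinates are those of RefSeq on GRCm38.p6, 1-based. All pairs of libraries within a group differed beyond counting noise.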

Additional observations from a re-analysis of the deposited data

Results flagged for a closer look

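Marco in Rosa26-edited 5 stood apart from the other 4 controls. It was at 369.7 CPM there and at 13.1 to 16.8 CPM in Rosa26-edited 1 to 4, and the gap to the nearest control was 0.990 of the group's whole range, above Dixon's 95% value for 5 libraries. Of 20 groups examined (10 markers in 2 groups) 1 was marked in this way, where chance marks about 1 in 20. Of all genes tested, 3.88% had a highest control that stood apart by this measure. Rosa26-edited 5 had 22885814 counts in all, against 21951566 in Rosa26-edited 4 of the same run.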

How the results depend on the processing

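None of the 10 markers was called under any setting but 1: without a filter on low counts, 2 were called lower, Adgre1 (-0.59, adjusted p = 0.0248 in edgeR) and Ctss (-0.57, adjusted p = 0.0304), beside 450 calls over all genes (1.15% lower, 0.476% higher) against 1 with the filter, and the interaction of run and group then had 1 marker called, Marco (-3.44 ± 0.40, adjusted p = 2.51e-14, where 0.728% of genes were called lower and 0.2% higher); the cause was not tested. DESeq2 called 100 genes. The median over the markers was negative under all 21 planned settings, from -0.63 (without Rosa26-edited 3) to -0.23 (without Rosa26-edited 2), and 0.02 without Rosa26-edited 2 and 5, a choice made after the values were seen. Leaving out WRE-edited 4 or WRE-edited 5 could hardly move the median (-0.45 in each), since run r711 holds no control. Signs reversed without Rosa26-edited 2 and 5 for Timd4 (0.0044), Cd5l (0.10), Vsig4 (0.033), Csf1r (0.045), C1qa (0.011), Cd68 (0.17) and Marco (0.73), and without Rosa26-edited 2 for Cd68 (0.047, against -0.26 without Rosa26-edited 3). Marco also reversed within r770 (0.56), without WRE-edited 6 (0.55) and without Rosa26-edited 5 (0.66), and was at -0.72 without WRE-edited 2. No label says that replicate numbers pair the libraries. Deviations of libraries with the same number correlated at -0.41 to 0.15. Numbers 4 and 5 fall in different runs in the 2 groups, so these correlations cannot settle whether libraries were paired. With the replicate number as a block the median was -0.25 (-0.39 with no run term), Marco was at 0.47, Vsig4 at 0.0012 with no run term, and 0 markers and 0 miRNAs were called. No call on a myeloid miRNA was made under any setting. The interaction could not be fitted without WRE-edited 6. Depth does not limit Cd5l (61623 counts in all) but bears most on Timd4 (2843).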
